A study of Homo sapiens with 9 samples.

Results

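Glutathione S-transferases join glutathione to reactive compounds, among them products of lipid peroxidation, and some of them also reduce lipid peroxides. The soluble enzymes fall into classes (pi, mu, alpha, omega, zeta and others), a further class sits in mitochondria and peroxisomes, and the microsomal enzymes belong to the separate MAPEG family of membrane proteins. Ferroptosis is a cell death driven by iron-dependent lipid peroxidation, in which glutathione supplies the electrons that glutathione peroxidase 4 (GPX4) uses to reduce lipid peroxides.

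The transcripts described here are those of 10 such genes, GSTP1 (pi), GSTM3 and GSTM4 (mu), GSTA4 (alpha), GSTO1 (omega), GSTZ1 (zeta), GSTK1 (kappa), and MGST1, MGST2 and MGST3 (microsomal). They were taken by gene symbol from the 58735 genes of the count table, as a list chosen with earlier results of these data known. All 10 passed the filter on low counts, which left 16188 genes for testing. Of 16 other listed transferase and MAPEG genes in the count table, 7 passed it, so the 10 are not the whole family. The 9 RNA libraries come from MDA-MB-231, a cell line of triple-negative breast cancer. Vehicle cells had been given DMSO, erastin-R cells were those that survived increased amounts of erastin, an inhibitor of the cystine importer system xc-, and RSL3-R cells those that survived increased amounts of RSL3, an inhibitor of GPX4. The comparisons ask which transcripts differed between the surviving cells and vehicle cells, and between the cells that survived either drug. Each condition had 3 libraries, and the labels do not say whether these came from separate cultures, so p values measure the spread between these libraries, which may be technical. Whether the surviving cells were 1 clone or a mixed population is not given in the labels, and the schedule of drug treatment was not used here.

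Total counts per library ranged from 15405102 to 17273464. The coefficient of variation between libraries of a condition was 8.56%, as edgeR's common value for all tested genes beyond counting error. Erastin-R replicate 1 stood apart from the other erastin-R libraries, with a correlation across genes of 0.986 with each of them against 0.992 between these, and results that changed in call or by over 1.5 times without it are given both ways. VIM, high in this line, had a mean of 1347 to 1475 CPM in the 3 conditions, ERBB2 one of 62.0 to 93.3 CPM, and ESR1 had at most 12 counts and PGR at most 2 in any library. Of 4 markers of other cell types, PTPRC, PECAM1 and COL1A1 were called higher in RSL3-R cells than in vehicle and PECAM1 lower in erastin-R cells, while ALB had at most 6 counts. PTPRC had 4 to 11 counts in vehicle, 3 to 11 in erastin-R and 19 to 24 in RSL3-R libraries (a change of 1.67 on the log2 scale in RSL3-R, adjusted p = 0.00818), and PECAM1 means were 9.99, 1.79 and 12.8 CPM. The 4 summed to 16.7 to 19.3 CPM in vehicle, 10.1 to 12.2 in erastin-R and 23.5 to 25.2 in RSL3-R libraries. CDH1, an epithelial marker low in this line, was at 1.14, 0.751 and 3.44 CPM and rose in RSL3-R cells (1.58 on the log2 scale, adjusted p = 0.00130). The other epithelial markers looked at did not rise, with EPCAM at 2.15, 1.32 and 1.65 CPM and no KRT5 counts in any library. EPCAM was not called in RSL3-R (-0.37, adjusted p = 0.314) or erastin-R cells (-0.70, adjusted p = 0.0648). Without erastin-R replicate 1, EPCAM was called lower in erastin-R cells (-0.79, adjusted p = 0.0491). The part of these markers in the results was not tested. In bulk RNA, fewer cells carrying a transcript and less of it per cell cannot be told apart. Levels of 1 gene across libraries are given as CPM, read counts brought to a common library total after TMM scaling. A change on the log2 scale (log2FC) was called where the adjusted p of edgeR's quasi-likelihood test over all tested genes is below 0.05.

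The starts of these genes differ in the letters that the transcription factor NRF2 is known to read, the antioxidant response element, whose core is TGACNNNGC. RefSeq promoter windows (GRCh38.p14, 250 bases before to 50 after a start) were matched by symbol for 9 of the 10 genes, in 11 windows since MGST1 has 3 starts. MGST2 was not matched. Searched on both strands, the core was found in 4 of the 11 windows, belonging to 4 genes, against 13.3% of all 35116 windows. These 4 windows are printed with the core in capitals. The windows of GSTM3, GSTM4, GSTK1, GSTZ1, MGST3 and the other starts of MGST1 did not hold these letters. The GSTP1 window is chr11:67583562-67583861 (+), the GSTO1 window chr10:104254642-104254941 (+), the GSTA4 window chr6:52995235-52995534 (-) and the MGST1 window, of its most upstream start, chr12:16346865-16347164 (+), each written 5′ to 3′ on the gene's strand.
GSTP1: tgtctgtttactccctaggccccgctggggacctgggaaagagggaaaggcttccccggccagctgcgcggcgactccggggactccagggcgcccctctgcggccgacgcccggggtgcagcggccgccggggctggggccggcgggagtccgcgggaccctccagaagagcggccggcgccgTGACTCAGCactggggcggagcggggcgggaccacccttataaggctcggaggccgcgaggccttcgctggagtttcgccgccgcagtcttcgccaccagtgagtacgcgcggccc
GSTO1: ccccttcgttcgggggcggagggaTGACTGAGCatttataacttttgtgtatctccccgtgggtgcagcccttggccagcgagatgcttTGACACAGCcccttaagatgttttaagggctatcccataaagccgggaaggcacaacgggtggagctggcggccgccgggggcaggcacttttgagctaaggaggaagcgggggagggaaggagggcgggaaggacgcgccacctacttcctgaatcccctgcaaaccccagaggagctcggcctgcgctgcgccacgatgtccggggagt
GSTA4: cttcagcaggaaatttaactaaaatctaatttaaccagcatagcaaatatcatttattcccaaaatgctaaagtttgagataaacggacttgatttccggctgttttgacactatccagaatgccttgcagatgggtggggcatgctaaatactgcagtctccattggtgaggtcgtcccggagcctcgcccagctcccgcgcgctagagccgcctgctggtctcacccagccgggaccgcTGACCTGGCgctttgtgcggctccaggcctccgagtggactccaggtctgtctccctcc
MGST1: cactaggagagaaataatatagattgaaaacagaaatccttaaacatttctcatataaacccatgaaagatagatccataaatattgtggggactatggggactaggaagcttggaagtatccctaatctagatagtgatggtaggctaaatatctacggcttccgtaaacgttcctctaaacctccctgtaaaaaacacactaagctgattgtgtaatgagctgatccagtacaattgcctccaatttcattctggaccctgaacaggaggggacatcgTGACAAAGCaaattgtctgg

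In the GSTP1 window the core read TGACTCAGC, at -66 from the start, a form found in 0.561% of all windows. The GSTO1 window held 2 cores, at -226 and -161 from the start. In GSTA4 the core ended just before the start, at -9, and in MGST1 it began at 31 from the start. The upstream GSTO1 core lay in an intron and the other cores in an exon of their gene in GENCODE, whose transcripts begin further upstream than the RefSeq start in places. A GC box (GGGCGG, either strand) stood in 8 of the 11 windows, belonging to 7 genes, against 45% of all windows. A match of letters is not a measured binding site. In erastin-R cells GSTP1, GSTO1 and MGST1, with the core, and GSTM3 and GSTM4, without it, were called higher. GSTA4, with the core, was not called there, and GSTP1 was lower in RSL3-R cells. Any part of the core in these levels was not tested.

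Compared with vehicle, erastin-R cells had more MGST1, GSTM3, GSTM4, GSTO1 and GSTP1 transcript and less MGST2 and GSTZ1. That is 5 of the 10 higher and 2 lower, where 27.1% of all tested genes were called higher and 26.8% lower. RSL3-R cells had 3 of the 10 higher (GSTA4, GSTM3 and GSTO1) and 2 lower (GSTP1 and MGST2), where 23.8% of all tested genes were called higher and 24.9% lower. Between the surviving cells, GSTP1, GSTM3, GSTM4, GSTO1 and MGST1 were lower in RSL3-R than in erastin-R cells and the other 5 were not called, where 22.3% of tested genes were called higher and 26.9% lower. The log2FC values against vehicle of all 10 genes lay between -0.85 and 0.73. An absolute log2FC of 1 or more with an adjusted p below 0.05 was reached by 13.4%, 10.1% and 10.3% of tested genes in these comparisons and by 0 of the 10 genes in each, by edgeR with adjusted or unadjusted p, by DESeq2 and by limma. The median log2FC of the 10 genes was 0.26, -0.04 and -0.17, beside -0.0042, 0.0052 and -0.024 over all tested genes. Without erastin-R replicate 1 the first of these medians was 0.14. Both comparisons with vehicle share the vehicle libraries, so their values are not independent.

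**Figure D1:**
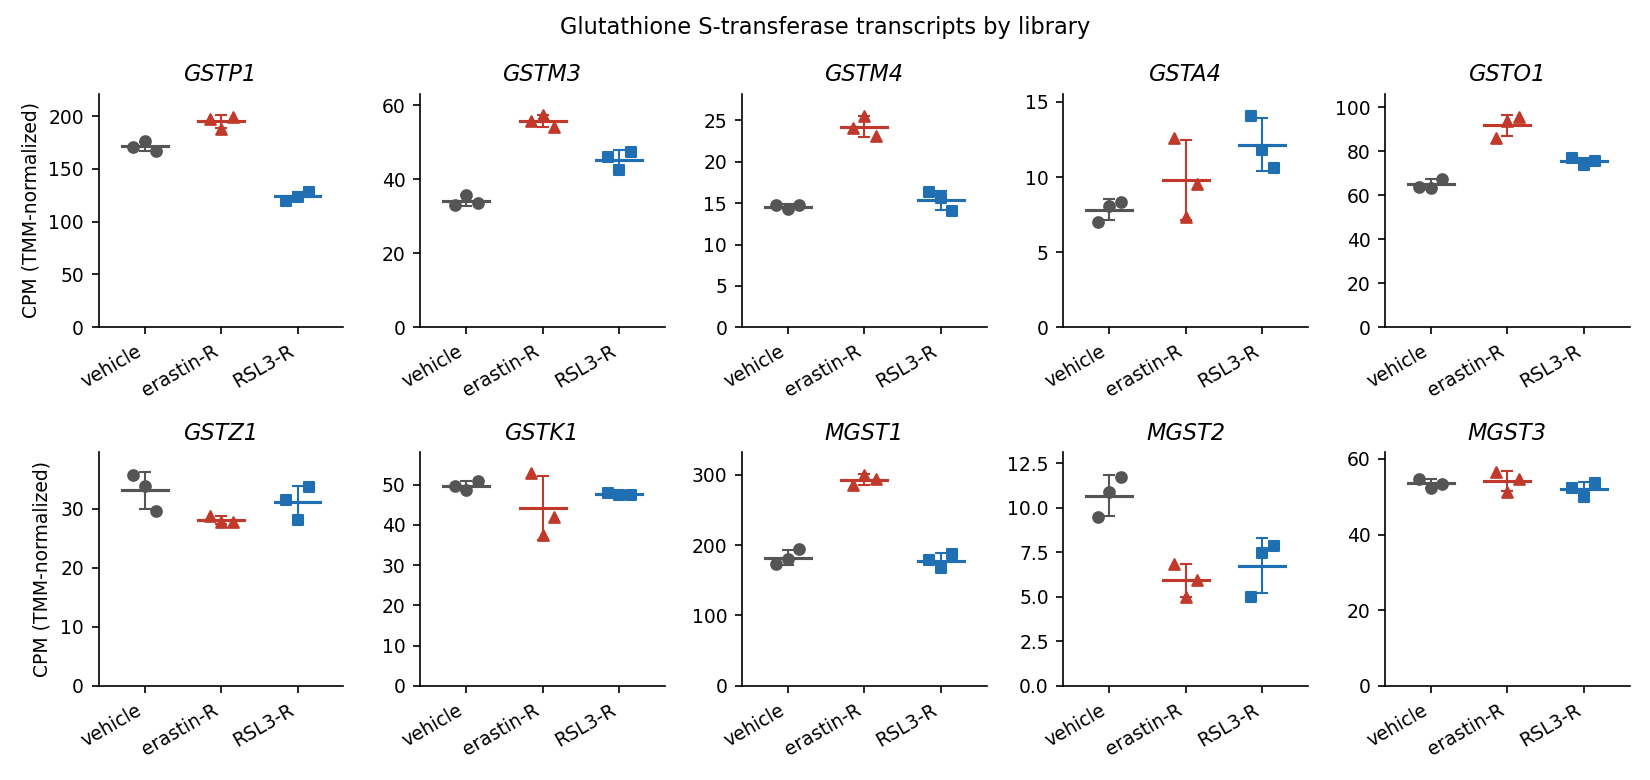
Transcript level of each of the 10 genes in CPM (TMM-normalized, linear axis from 0) in 3 vehicle (circles), 3 erastin-R (triangles) and 3 RSL3-R (squares) libraries, with the mean as a line and the SD as a bar. MGST1 stands at 285 to 299.98 CPM in erastin-R libraries and at 167 to 194 CPM in all others, while GSTP1 is lowest in the RSL3-R libraries.

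MGST1 (ENSG00000008394, chr12:16347142-16609259, + strand, GRCh38) encodes a membrane-bound transferase of the endoplasmic reticulum and outer mitochondrial membrane that also acts as a glutathione peroxidase. Its level was 172, 179.5 and 194 CPM in vehicle libraries 1 to 3, 285, 299.98 and 294 CPM in erastin-R, and 179, 167 and 188 CPM in RSL3-R. Every erastin-R library lay above all 6 others, and vehicle and RSL3-R libraries overlapped. The transcript rose 1.61-fold in erastin-R cells (log2FC 0.69 ± 0.06 SE, n = 3 against 3, adjusted p = 9.42e-07). In RSL3-R cells the log2FC was -0.03, with a 95% interval from -0.17 to 0.11 (adjusted p = 0.708), and its sign turned with 1 library left out. It was lower in RSL3-R than in erastin-R cells by a log2FC of -0.72 ± 0.06 (adjusted p = 1.05e-06). Under each alternative processing and with any 1 library left out, the higher level in erastin-R cells was called, with log2FC values between 0.65 and 0.73.

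The other microsomal transferases did not follow MGST1. MGST2 (ENSG00000085871, chr4:139665768-139740745, + strand), which can make leukotriene C4, was at 9.48, 10.9 and 11.7 CPM in vehicle, 6.85, 4.96 and 5.96 CPM in erastin-R, and 4.96, 7.46 and 7.83 CPM in RSL3-R libraries. All 6 libraries of surviving cells lay below the lowest vehicle library. It fell in erastin-R (log2FC -0.85 ± 0.18, adjusted p = 0.00109) as well as RSL3-R cells (-0.66 ± 0.17, adjusted p = 0.00653), on 77 to 190 counts per library. In the direct comparison its log2FC was 0.19, with a 95% interval from -0.20 to 0.59, and 0.31 without erastin-R replicate 1, also not called. Of the 50-base words in MGST2 transcripts, 6.29% also occur in MAML3, a gene on the opposite strand whose exons overlap it, and reads of both cannot be told apart if strand was not used in counting. MGST3 (ENSG00000143198, chr1:165630861-165661796, + strand), a microsomal transferase with peroxidase activity, stayed between 49.97 and 56.6 CPM in all 9 libraries. Its log2FC values were 0.02 (95% interval -0.13 to 0.16), -0.04 (-0.19 to 0.10) and -0.06 (-0.20 to 0.09) in erastin-R against vehicle, RSL3-R against vehicle and RSL3-R against erastin-R cells, and its sign turned under another normalization. Without erastin-R replicate 1 the first and last of these were -0.02 and -0.03.

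GSTP1 (ENSG00000084207, chr11:67583595-67586656, + strand), the pi class enzyme that conjugates many electrophiles, moved in opposite directions in the surviving cells. Vehicle libraries stood at 171, 176 and 167 CPM, erastin-R libraries at 197, 188 and 199 CPM, and RSL3-R libraries at 119.9, 124 and 128 CPM. The conditions did not overlap. It rose 1.14-fold in erastin-R cells (log2FC 0.19 ± 0.06, adjusted p = 0.0116), a call that was lost with no filter on low counts (adjusted p = 0.05001), and it fell in RSL3-R cells (-0.47 ± 0.06, adjusted p = 1.26e-05). The difference between RSL3-R and erastin-R cells was -0.65 ± 0.06 (adjusted p = 7.93e-07).

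The mu class transferases, which conjugate epoxides and other electrophiles, were both higher in erastin-R cells. GSTM3 (ENSG00000134202, chr1:109733932-109741038, - strand) was at 33.0, 35.8 and 33.7 CPM in vehicle, 55.8, 57.3 and 54.2 CPM in erastin-R, and 46.0, 42.6 and 47.4 CPM in RSL3-R libraries. The 3 conditions formed separate ranges, with RSL3-R between the others. It rose 1.63-fold in erastin-R (log2FC 0.71 ± 0.07, adjusted p = 2.07e-06) and 1.33-fold in RSL3-R cells (0.41 ± 0.07, adjusted p = 3.43e-04). The direct difference of -0.30 ± 0.07 (adjusted p = 0.00310) was not called after quantile normalization (adjusted p = 0.0530). GSTM4 (ENSG00000168765, chr1:109656081-109674836, + strand) stood at 14.7, 14.3 and 14.7 CPM in vehicle, 24.1, 25.6 and 23.1 CPM in erastin-R, and 16.3, 15.7 and 14.0 CPM in RSL3-R libraries. As for MGST1, erastin-R libraries lay above all others and RSL3-R overlapped vehicle. It rose 1.66-fold in erastin-R cells (0.73 ± 0.09, adjusted p = 1.99e-05), with a log2FC of 0.07 in RSL3-R cells (95% interval -0.14 to 0.28) and of -0.66 ± 0.09 between them (adjusted p = 6.45e-05). GSTM4 shares 16.9% of its 50-base words with other genes, mostly GSTM2, so how uniquely mapped reads split between these copies is uncertain, while GSTM3 shares 4.8%.

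GSTA4, GSTO1 and GSTZ1 differ in what they are known to do and in how their transcripts moved. GSTO1 (ENSG00000148834, chr10:104235356-104267459, + strand), which reduces dehydroascorbate and mixed disulfides, was at 64.0, 63.4 and 67.6 CPM in vehicle, 86.2, 93.7 and 95.6 CPM in erastin-R, and 77.1, 74.0 and 75.6 CPM in RSL3-R libraries. No ranges overlapped, and RSL3-R lay between the others. It rose 1.41-fold in erastin-R (log2FC 0.50 ± 0.06, adjusted p = 1.91e-05) and 1.16-fold in RSL3-R cells (0.22 ± 0.06, adjusted p = 0.0126), the latter not called with no filter on low counts (adjusted p = 0.0501) or without vehicle replicate 2 (adjusted p = 0.0634). Between RSL3-R and erastin-R cells it differed by -0.28 ± 0.06 (adjusted p = 0.00234).

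GSTA4 (ENSG00000170899, chr6:52977948-52995378, - strand) is the alpha class enzyme best known for clearing 4-hydroxynonenal, an end product of lipid peroxidation. It was at 7.03, 8.09 and 8.33 CPM in vehicle, 12.6, 7.32 and 9.54 CPM in erastin-R, and 14.1, 11.8 and 10.6 CPM in RSL3-R libraries. RSL3-R libraries lay above all vehicle libraries, and the erastin-R libraries spread over both ranges. It rose 1.55-fold in RSL3-R cells (log2FC 0.63 ± 0.18, adjusted p = 0.00951). In erastin-R cells the log2FC was 0.33 (95% interval -0.06 to 0.72). This value was 0.11 without erastin-R replicate 1 and 0.50 without erastin-R replicate 2, the latter called (adjusted p = 0.0228). The direct difference was 0.30 (95% interval -0.08 to 0.68) and became 0.52 without erastin-R replicate 1 (adjusted p = 0.00422). The gene had 115 to 218 counts per library.

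GSTZ1 (ENSG00000100577, chr14:77320884-77331597, + strand), an isomerase of tyrosine breakdown, stood at 35.8, 33.9 and 29.7 CPM in vehicle, 28.8, 27.7 and 27.8 CPM in erastin-R, and 31.6, 28.2 and 33.7 CPM in RSL3-R libraries. All erastin-R libraries lay below the lowest vehicle library, and the RSL3-R libraries overlapped both. Its fall in erastin-R cells (log2FC -0.24 ± 0.09, adjusted p = 0.0435) was close to the threshold and was not called in 8 of 15 alternatives, with adjusted p from 0.0160 to 0.167. Its log2FC in RSL3-R cells was -0.09 (95% interval -0.29 to 0.11) and its direct difference 0.15 (-0.05 to 0.35). GSTK1 (ENSG00000197448, chr7:143244093-143270854, + strand), the mitochondrial and peroxisomal transferase, was at 49.6, 48.8 and 50.9 CPM in vehicle and 47.9, 47.5 and 47.4 CPM in RSL3-R libraries, against 53.0, 37.5 and 41.9 CPM in erastin-R. Erastin-R replicate 1 was the highest of all 9 libraries and the other erastin-R libraries the lowest. Every RSL3-R library lay just below the vehicle libraries, with a log2FC of -0.06 (95% interval -0.28 to 0.15) that was not called. The log2FC in erastin-R cells was -0.17 (95% interval -0.39 to 0.05) with all libraries and -0.33 without that replicate (adjusted p = 2.45e-04), and the direct difference moved from 0.11 (-0.11 to 0.33) to 0.26 (adjusted p = 0.00272). Without it, 5 of the 10 genes were higher and 3 lower in erastin-R against vehicle, where 29.6% and 30.3% of all tested genes were, and 2 higher and 5 lower in RSL3-R against erastin-R cells, where 27.1% and 30% were. The 3 of 10 lower are at the share of all genes.

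**Figure D2:**
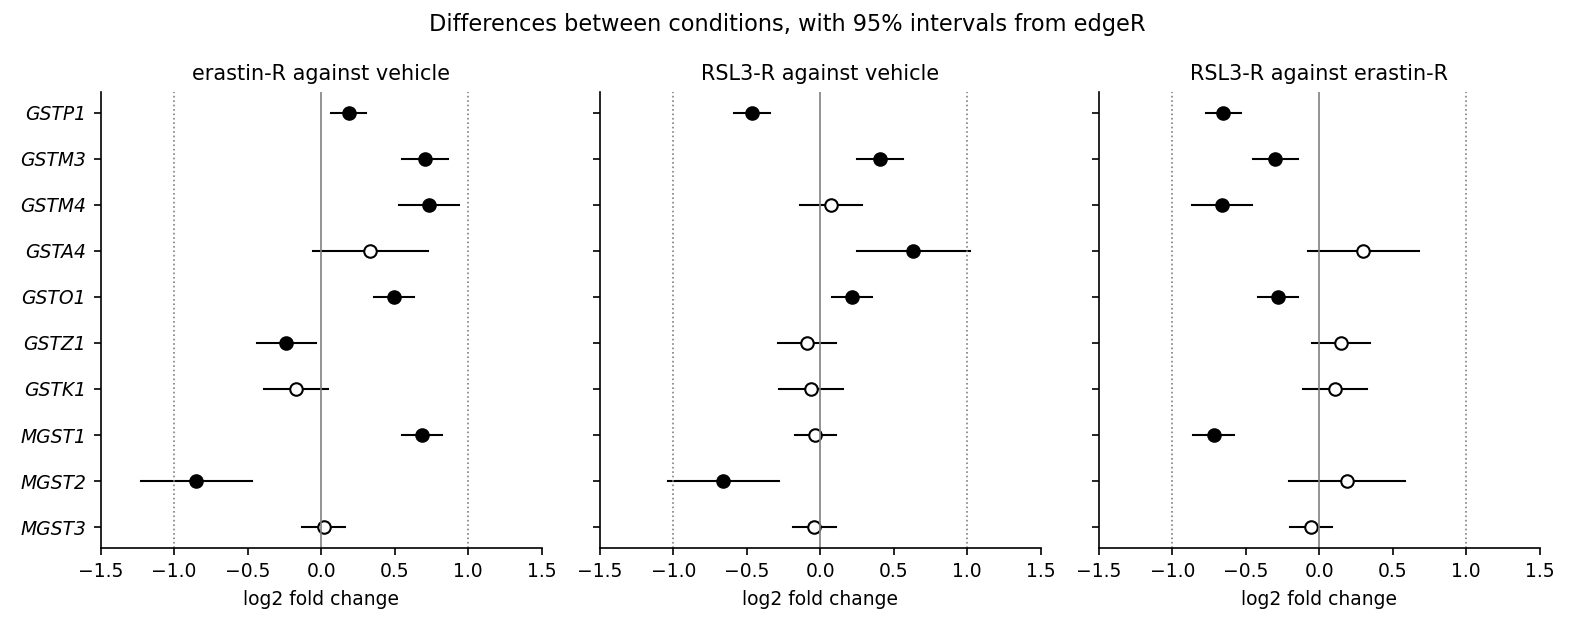
Log2FC of each gene (points) with its 95% interval (lines) from edgeR, in erastin-R against vehicle, RSL3-R against vehicle and RSL3-R against erastin-R cells. Filled points have an adjusted p below 0.05 and dotted lines mark a log2FC of -1 and 1, which no point reaches; MGST1 and GSTM4 lie to the right in erastin-R, near 0 in RSL3-R and to the left in the direct comparison.

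Compared per length, as FPKM computed from the deposited counts and gene lengths, GSTP1 was the most abundant of the 10 in every condition. In vehicle cells it stood at 89.6 ± 2.41 FPKM (SD, n = 3), followed by GSTO1 at 38.5 ± 1.34, MGST1 at 24.5 ± 1.49 and GSTK1 at 11.8 ± 0.250. GSTM3 (7.19 FPKM) and MGST3 (6.37 FPKM) came next, and GSTZ1, GSTA4, MGST2 and GSTM4 lay between 2.54 and 3.91 FPKM. The libraries of GSTZ1 and GSTA4, and of GSTA4 and MGST2, overlapped, and other neighbours did not. In erastin-R cells the order began GSTP1 (102.0 ± 3.12 FPKM), GSTO1 (54.3 ± 2.93) and MGST1 (39.4 ± 1.05), then GSTM3 (11.7), GSTK1 (10.4), MGST3 (6.45), GSTA4 (4.52), GSTM4 (4.22), GSTZ1 (3.32) and MGST2 (1.86), where GSTM3 overlapped GSTK1 and GSTA4 overlapped GSTM4. In RSL3-R cells the same genes led, at 64.9 ± 2.21, 44.7 ± 0.932 and 23.9 ± 1.43 FPKM, then GSTK1 (11.3), GSTM3 (9.54), MGST3 (6.19), GSTA4 (5.58), GSTZ1 (3.68), GSTM4 (2.67) and MGST2 (2.12), where MGST3 overlapped GSTA4 and GSTM4 overlapped MGST2.

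This order depends on the length used. The deposited lengths are the union of all annotated exons, which for MGST1 is 7440 bases, while its principal transcript has 979 bases. Per length of the principal transcript, a choice added after the data were seen, MGST1 led at 185.9, 299.3 and 181.8 FPKM in vehicle, erastin-R and RSL3-R cells, before GSTP1 at 178.2, 202.8 and 129.0 FPKM. In vehicle cells these values of MGST1 and GSTP1, with SDs of 11.3 and 4.80 FPKM, differed by less than the SD of MGST1. GSTO1 was then at 66.9, 94.4 and 77.7 FPKM and MGST3 followed it. With either length, GSTP1, GSTO1 and MGST1 were the leading 3 genes in all conditions.

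**Figure D3:**
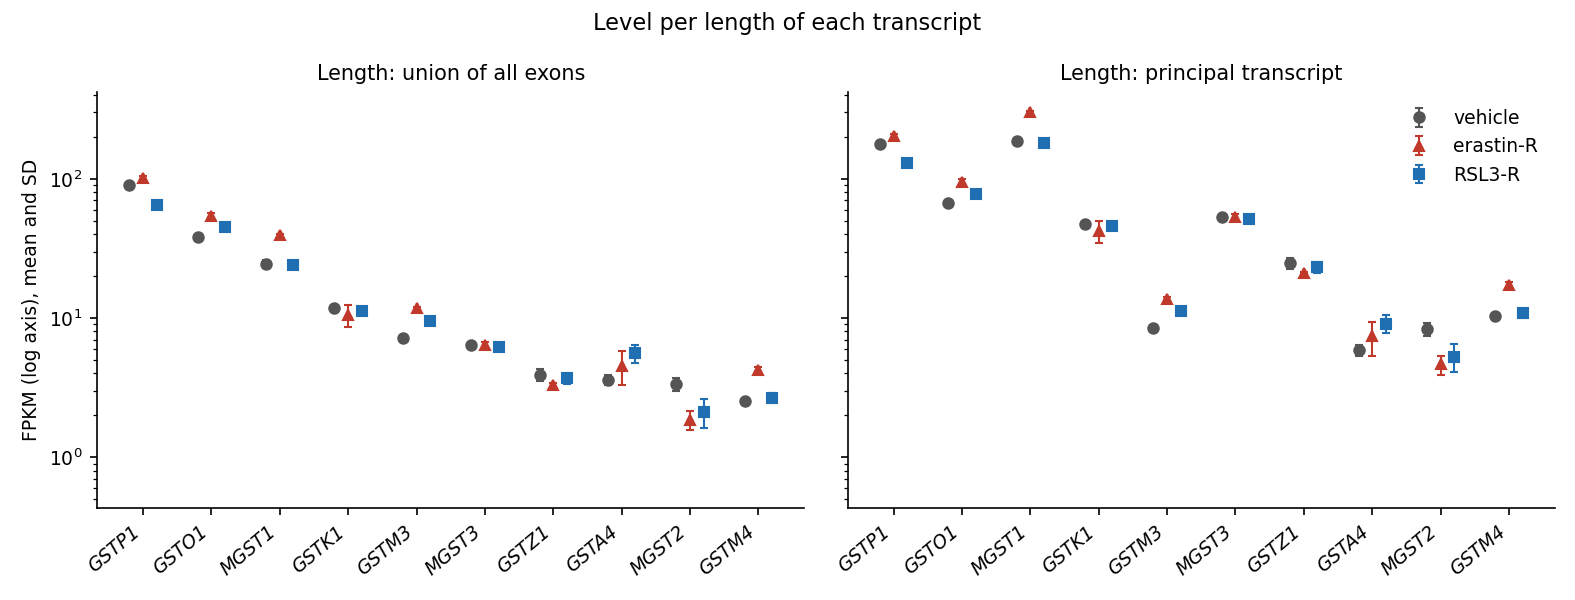
Mean level per length (FPKM, log axis, with SD over 3 libraries) of the 10 genes in vehicle (circles), erastin-R (triangles) and RSL3-R (squares) cells, with lengths from the union of all exons (left) and from the principal transcript (right). GSTP1, GSTO1 and MGST1 lead in both panels, and MGST1 moves from the third to the first place on the right.

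Across the 9 libraries, the genes whose log2 CPM was most like that of MGST1 were KLHL8 (Pearson r = 0.994), CRTAP (0.993) and METTL9 (0.988), given as a description since libraries of a condition share their level. Like MGST1, they were at 43.9, 388 and 121 CPM in erastin-R cells, against 32.9, 298 and 82.2 CPM in vehicle and 33.1, 292 and 84.1 CPM in RSL3-R cells. Among the other 9 transferases r with MGST1 was highest for GSTM4 (0.949) and GSTO1 (0.872), then GSTM3 (0.788) and GSTP1 (0.726), and was lowest for GSTZ1 (-0.656).

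Genes that supply glutathione, from cystine import to synthesis and NADPH, were mostly higher in erastin-R cells. Of the 10 tested, 8 were higher in erastin-R cells, with a median log2FC of 0.70, and 5 were higher and 1 lower in RSL3-R cells, with a median of 0.21. Over all tested genes 27.1% were called higher in erastin-R cells, and 23.8% higher and 24.9% lower in RSL3-R cells. SLC7A11, the cystine carrier of system xc-, was at 30.5 ± 0.649 CPM in vehicle, 207 ± 10.4 in erastin-R and 176 ± 3.25 in RSL3-R libraries, a rise of 6.78-fold (adjusted p = 6.24e-12) and 5.76-fold (adjusted p = 9.93e-12). CTH, which makes cysteine from cystathionine, rose from 3.99 ± 0.990 CPM in vehicle to 25.0 ± 1.95 and 29.9 ± 1.60 CPM. GCLC and GCLM, the subunits of glutamate-cysteine ligase, were called higher in erastin-R cells, at 119 ± 11.5 against 42.2 ± 2.63 CPM (log2FC 1.49, adjusted p = 5.60e-09) and 168 ± 11.1 against 66.1 ± 4.39 CPM (1.35, adjusted p = 8.16e-09). In RSL3-R cells GCLC was at 47.0 ± 0.669 CPM (0.16, 95% interval -0.02 to 0.33), and GCLM fell to 50.2 ± 3.27 CPM (-0.40, adjusted p = 6.96e-04). Without erastin-R replicate 1 the count in RSL3-R cells was 6 higher and 3 lower, with GCLC called higher (0.15, adjusted p = 0.0348). Over all tested genes the shares were then 27.4% and 29.2%, so the 3 of 10 lower are near that share.

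NRF2 and genes it is known to induce gave the largest median of the 6 lists in both comparisons with vehicle. The list holds regulators of NRF2 too, KEAP1 among them. Of 17 tested, 15 were higher in erastin-R cells, 11 of them by a log2FC of 1 or more, with a median of 1.20. Over all tested genes 27.1% were called higher there. In RSL3-R cells 11 were higher and 2 lower, with a median of 0.32, and in the direct comparison 13 were lower in RSL3-R cells and 2 higher, with a median of -1.04. The shares over all tested genes were 23.8% higher and 24.9% lower in RSL3-R cells, and 26.9% lower and 22.3% higher in the direct comparison. The ferritin chains FTH1 and FTL rose 4.38-fold and 2.86-fold in erastin-R cells and 1.66-fold and 1.25-fold in RSL3-R cells. HMOX1, the heme oxygenase, rose 2.90-fold and 1.41-fold. FTH1, FTL and HMOX1 were named for having some of the largest changes of the list. In RSL3-R cells NQO1 (log2FC -0.006), OSGIN1 (-0.27), SRXN1 (-0.46) and GCLC were not called, and GCLM and KEAP1 were lower. NFE2L2, which encodes NRF2, had a log2FC of 0.17 in erastin-R cells (95% interval -0.08 to 0.43) and rose in RSL3-R cells (0.53, adjusted p = 0.00247), while KEAP1, its inhibitor, was at -0.05 (-0.27 to 0.18) and fell in RSL3-R cells (-0.40, adjusted p = 0.00632). Erastin-R replicate 1 stood apart for both, at 159 CPM for NFE2L2 against 106 and 123 CPM in replicates 2 and 3, and at 66.3 CPM for KEAP1 against 92.7 and 87.5 CPM. Without it their log2FC in erastin-R cells was -9.02e-05 and 0.09, neither called. The list then counted 12 higher and 3 lower in RSL3-R cells, where 27.4% and 29.2% of all tested genes were. SRXN1 was then called lower in RSL3-R cells (-0.47, adjusted p = 0.0190). SLC7A11, GCLC and GCLM are among the genes that this list shares with the supply list. FTH1 shares 57.4% of its 50-base words with other genes, most of all BEST1, and pseudogenes are among them. Exons of BEST1, on the opposite strand, overlap 62.4% of the FTH1 exon bases, where reads cannot be told apart if strand was not used in counting. FTL shares 18.3% of its words with other genes, NFE2L2 15.6% and SLC7A11 9.19%. For comparison, the largest log2FC among the 10 transferases in erastin-R cells was 0.73, for GSTM4.

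Genes that export or break down glutathione conjugates were called in both directions. Of 18 tested, 8 were higher and 3 lower in erastin-R cells, and 8 higher and 6 lower in RSL3-R cells, with medians of 0.22 and 0.06. Over all tested genes 27.1% and 26.8%, and 23.8% and 24.9%, were called higher and lower in these comparisons. CHAC1, which degrades glutathione, was at 6.32 ± 0.901 CPM in vehicle, 29.9 ± 5.04 in erastin-R and 90.7 ± 2.14 in RSL3-R libraries (log2FC values 2.24 and 3.84, adjusted p = 1.65e-08 and 9.09e-11). ABCC2, an export pump for conjugates, rose 2.17-fold and 2.41-fold. The peptidases ANPEP and DPEP1 rest on few counts. ANPEP had 2 to 4 counts in vehicle and 17 to 22 in erastin-R libraries, and DPEP1 had 22 to 28 in vehicle and 2 to 9 in RSL3-R libraries. Of 5 glutathione peroxidases tested, 2 were higher in erastin-R and GPX4 alone in RSL3-R cells. GPX4 was at 193 ± 1.57, 276 ± 10.2 and 252 ± 11.8 CPM in vehicle, erastin-R and RSL3-R cells, and rose in both (0.51, adjusted p = 4.74e-06, and 0.38, adjusted p = 7.37e-05). Without erastin-R replicate 1, the peroxidases counted 2 higher and 1 lower in each comparison with vehicle. Over all tested genes 29.6% and 30.3% were then higher and lower in erastin-R cells, and 27.4% and 29.2% in RSL3-R cells. GPX4 was then called lower in RSL3-R than in erastin-R cells (-0.16, adjusted p = 0.00519, against -0.13 and 0.0779 with all libraries).

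**Figure D4:**
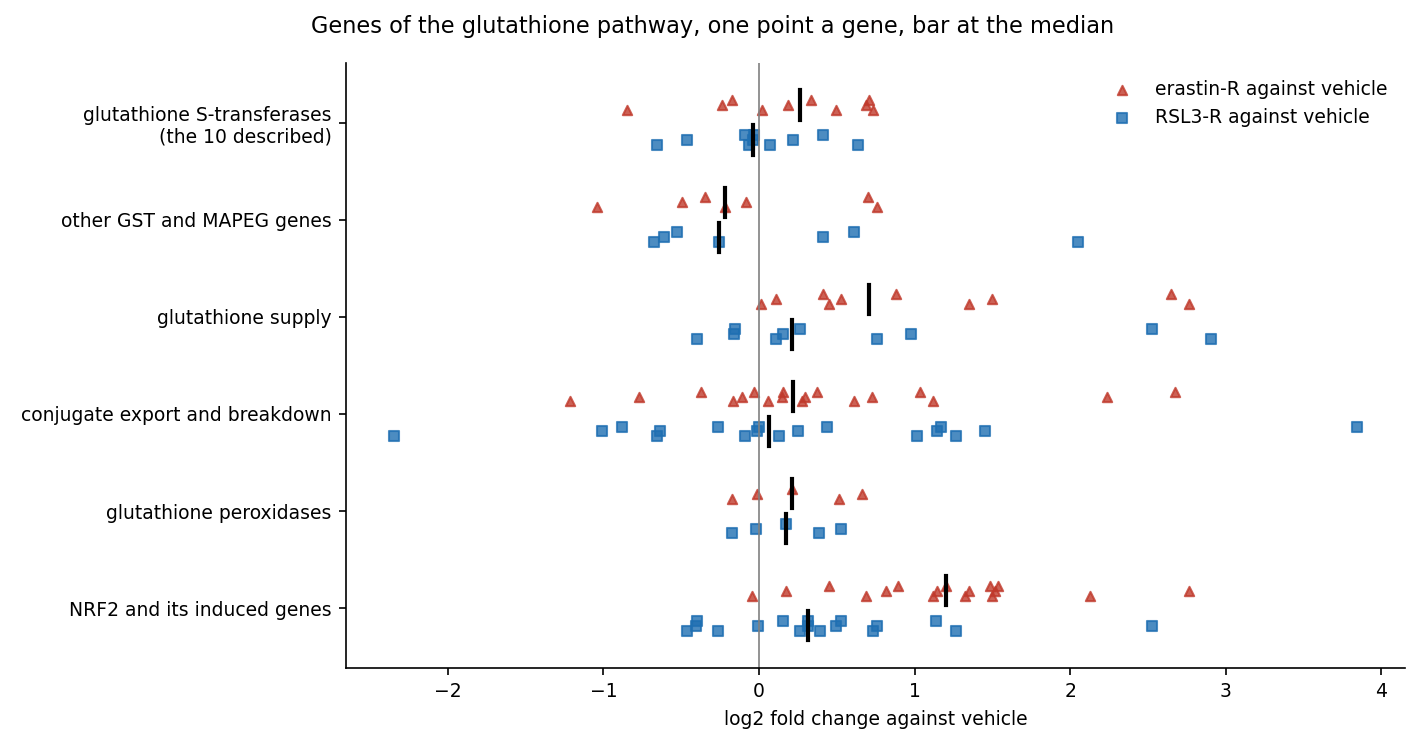
Log2FC against vehicle of every tested gene of 6 lists in erastin-R (triangles) and RSL3-R cells (squares), with the median of each list as a black bar. The 10 transferases lie between -0.85 and 0.73, while the NRF2 list has its median at 1.20 in erastin-R and 0.32 in RSL3-R libraries.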

How the data were processed

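Per the labels, 9 MDA-MB-231 libraries were grouped by treatment (DMSO, erastin, RSL3), with replicate numbers from the sample titles. The authors deposited, for each library, counts per gene without normalization. Their processing notes name HISAT2 2.0.5 and featureCounts 1.5.0-p3, and their methods state oligo(dT) enrichment and uniquely mapped exonic reads; use of strand is not given in the sources used here. The deposited FPKM values were made from the same counts, the gene length and 1 constant per library. Gene identifiers and coordinates equal those of GENCODE release 29 on GRCh38.

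Counts were tested with edgeR 4.0.16 in R 4.3.3 (TMM, filterByExpr, glmQLFit and glmQLFTest, 1 model of all 9 libraries without covariates), with Benjamini-Hochberg adjustment over 16188 genes. The 95% intervals come from the same fit. FPKM in the text were computed from counts, TMM-scaled totals and lengths. Alternatives were no filter, median-ratio size factors, DESeq2 1.42.0, limma 3.58.1 after quantile normalization, only the 2 conditions compared, a replicate block, an unadjusted p, and each library left out. The deposited FPKM and the principal transcript's length were used only for the order of levels. Tests were tried on simulated counts. A floor of 3 counts was 0.175 to 0.193 CPM, which covers counting error only. Promoters came from RefSeq (GRCh38.p14) and shared 50-base words from GENCODE transcripts. Figures used Python 3.11.15 and matplotlib 3.10.9.

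The 10 genes and the lists were chosen with earlier results of these data known. All 10 genes are named, and other listed genes only where an adjusted p below 0.05 and a change of 1 or more on the log2 scale against vehicle were reached, at most 4 per list, together with GPX4, GCLM, NFE2L2, KEAP1 and SLC7A11 and the 3 genes most like MGST1. Named outside this rule are cell type markers, NQO1, OSGIN1, SRXN1, BACH1 and MAFG and, in the closing section, PTGES, GSTCD and GSTM1. All but the markers were chosen after their values were seen.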

Additional observations from a re-analysis of the deposited data

How the results depend on the processing

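Most alternatives changed a call among the 30 results (10 genes in 3 comparisons), by at most 3 calls in each. DESeq2, median-ratio size factors and an unadjusted p gave the same call and direction in all of them. The number of genes lower in erastin-R than in vehicle cells, 2 with all libraries, was 1 with no filter on low counts, 1 with only the 2 conditions compared, 1 with the replicate block, and 1 to 3 with 1 library left out, GSTZ1 being lost in the first 3 settings (adjusted p = 0.0592, 0.0577 and 0.0621) and GSTK1 gained without erastin-R replicate 1. The number higher in RSL3-R than in erastin-R cells was 0 to 2 with 1 library left out, the 2 being GSTK1 and GSTA4 without erastin-R replicate 1. The cause was not tested. After quantile normalization with limma, MGST3 turned to -0.0426, 0.0126 and 0.0552 in erastin-R against vehicle, RSL3-R against vehicle and RSL3-R against erastin-R cells, with none called. With 1 library left out, uncalled log2 fold changes crossed 0 for MGST3 in erastin-R (-0.0175 to 0.0555) and for MGST1 in RSL3-R cells (-0.0710 to 0.0122). Same-numbered libraries did not deviate together (correlations from -0.0904 to 0.0518, 1 of 9 libraries closest to its own number). With 3 libraries per condition this cannot tell whether same-numbered libraries were handled together. The block lost the call of GSTZ1 and changed no other of these genes. No setting moved the median of all genes by 0.1 or more. MGST2 and GSTA4, with 77 to 218 counts per library, had the widest intervals of the 10 genes, and how much of this is depth was not tested.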

Other observations

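Other transferase and MAPEG genes are described here, and except for ALOX5AP those given with values were chosen after their values were seen. Of the 17 listed, 16 were in the count table under their symbol and 7 passed the filter, of which 2 were higher and 1 lower in erastin-R cells (2 and 2 of 8 without erastin-R replicate 1), and 1 higher and 4 lower in RSL3-R cells. Over all tested genes 27.1% and 26.8% were higher and lower in erastin-R cells, so 2 of 7 is at that share, and 23.8% and 24.9% in RSL3-R cells. PTGES, the MAPEG enzyme that makes prostaglandin E2, was at 128 ± 3.37 CPM in vehicle, 208 ± 25.6 in erastin-R and 107 ± 5.18 in RSL3-R libraries, with log2FC values of 0.70 (edgeR, adjusted p = 7.03e-06) and -0.25 (adjusted p = 0.0190). Relative to vehicle it was higher in the former and lower in the latter, as GSTP1 was. GSTCD fell in both, from 31.9 ± 2.25 CPM to 22.7 ± 0.754 and 20.9 ± 0.556 CPM (-0.50 and -0.61, adjusted p = 2.07e-04 and 4.14e-05). It is listed by its symbol, and whether its product acts as a transferase was not looked at. GSTCD shares 5.06% of its 50-base words with other genes, most of all INTS12, whose exons on the opposite strand overlap it. GSTM1 fell in RSL3-R cells (-0.68, adjusted p = 1.79e-04) and, without erastin-R replicate 1, in erastin-R cells (-0.29, adjusted p = 0.0329, against -0.22 and 0.0995 with it) but shares 51.5% of its 50-base words with other genes, so its value is uncertain.

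ALOX5AP, the MAPEG protein that presents arachidonic acid to 5-lipoxygenase, had 5, 6 and 8 counts in vehicle, 5, 3 and 1 in erastin-R and 24, 35 and 20 in RSL3-R libraries. It rose in RSL3-R cells (log2FC 2.05 ± 0.42, adjusted p = 0.00118), on counts too low to give its size closely. GSTA1, GSTA3, GSTA5 and GSTT4 had no counts in any library, below the floor of 3 counts, 0.175 to 0.193 CPM.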
